A study of Mus musculus with 8 samples.

Results

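Transcripts of 10 neutrophil granule genes, out of 20207 genes listed, were followed through 8 RNA-sequencing libraries of mouse bone marrow stem and progenitor cells. The set holds 4 genes of primary granules (Mpo, Ela2, Prtn3 and Ctsg), 4 genes of secondary granules (Ltf, Ngp, Camp and Lcn2) and the pair S100a8 and S100a9. The genes were chosen by symbol and by their measured RPKM (mapped reads scaled to transcript length and library size) in the long-term stem cell libraries, including the gaps between replicates and between CML and normal libraries there, so those values are given as a description with no test. All 10 genes were listed in every library and all 10 passed the filter on low values that left 12561 genes for testing.

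The study compared stem and progenitor cells of mice with a chronic myelogenous leukaemia (CML)-like disease with those of healthy littermates. CML-affected mice carried Tal1-tTA and TRE-BCR-ABL1, in which a Tal1 regulatory element drives the tetracycline-controlled transactivator in blood-forming stem and progenitor cells and BCR-ABL1 is switched on when doxycycline is withdrawn. Per the methods, littermates carried Tal1-tTA alone, so the transactivator was present in both groups if the normal libraries came from such littermates. The sample titles call these libraries normal and give an age but no genotype. The populations were long-term (LT) stem cells, sorted as CD150+CD48-CD135-KLS+, short-term (ST) stem cells, sorted as CD150-CD48-CD135-KLS+, and KLS- progenitors, which are c-Kit+, lineage-negative and Sca-1-. The lineage antibodies included Gr-1 and Mac1, which mark granulocytes and monocytes. There were 2 LT-HSC libraries (normal LT cells; replicate 1 from mice of 2 months and replicate 2 from mice of 6 months), 2 LT-CML libraries (replicates 1 and 2), and 1 library each of ST-HSC, ST-CML, normal KLS- and CML-KLS-. The normal ST and KLS- libraries came from mice of 2 months, and the labels give no age for the CML mice. Per the methods, sorted CML-affected mice and littermates were of both sexes and were taken at a fixed time after doxycycline withdrawal. Their stated age range was the same in both groups and ends below 6 months, so LT-HSC replicate 2 lies outside it. The labels name the strain C57BL/6 for every sample, whereas the methods of the study give both transgenic lines an FVB/N background. The numbers of the LT-HSC replicates only name the libraries and pair them with no LT-CML library. Age and replicate cannot be told apart in LT-HSC, and no source says that the 2 LT-CML libraries came from separate mice, so that p-values measure only the spread between these samples.

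Neutrophil granules are filled in the order in which the cell matures. Primary, or azurophil, granules are made at the promyelocyte stage and hold myeloperoxidase and serine proteases, whereas secondary, or specific, granules follow in myelocytes and metamyelocytes and hold iron-binding and antimicrobial proteins. S100a8 and S100a9 form calprotectin, an abundant calcium-binding protein of the neutrophil cytosol. C/EBP factors, PU.1, RUNX1 and MYB are known regulators of these genes. In bulk libraries, a change in the number of cells that carry a transcript and a change in its amount per cell cannot be told apart.

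Several of the genes lie close together in the mm9 genome (GENCODE M1 annotation). Ela2, now named Elane, lies at chr10:79349057-79350961 on the plus strand with 5 exons, 3137 bases from the end of Prtn3 at chr10:79337221-79345919 on the same strand. S100a8 at chr3:90472993-90473956 and S100a9 at chr3:90496554-90499643 are 22597 bases apart and on opposite strands. Camp at chr9:109749889-109751970, Ngp at chr9:110322254-110325514 and Ltf at chr9:110921796-110945270 share chromosome 9 but are separated by 570283 bases (Camp and Ngp) and 596281 bases (Ngp and Ltf). Mpo at chr11:87607083-87617915, Ctsg at chr14:56718718-56721411 and Lcn2 at chr2:32240153-32243317 stand alone on their chromosomes.

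Promoter windows of all 10 genes were found in RefSeq (build GRCm38.p6, 250 bases before to 50 bases after the annotated start), and 6 are shown, because the 4 primary genes share a letter string and the secondary genes Ngp and Camp differ although their transcripts follow each other. The motifs searched, on both strands, were TTNNGNAA for C/EBP, GAGGAA for PU.1, TGTGGT for RUNX and TAACNG for MYB. Capitals mark every match to any of them, and a match on the minus strand appears as its reverse complement. The windows are chr11:87793534-87793833 for Mpo, chr10:79886062-79886361 for Ela2 (Elane), chr10:79879417-79879716 for Prtn3 and chr9:110419558-110419857 for Ngp, all on the plus strand, and chr14:56102525-56102824 for Ctsg and chr9:109849407-109849706 for Camp on the minus strand.
Mpo: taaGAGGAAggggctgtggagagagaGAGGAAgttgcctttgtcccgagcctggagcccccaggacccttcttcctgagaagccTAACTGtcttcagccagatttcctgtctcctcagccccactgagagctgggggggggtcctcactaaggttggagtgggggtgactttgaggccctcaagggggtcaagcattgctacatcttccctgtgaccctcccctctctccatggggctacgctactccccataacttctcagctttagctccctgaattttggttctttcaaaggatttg
Ela2 (Elane): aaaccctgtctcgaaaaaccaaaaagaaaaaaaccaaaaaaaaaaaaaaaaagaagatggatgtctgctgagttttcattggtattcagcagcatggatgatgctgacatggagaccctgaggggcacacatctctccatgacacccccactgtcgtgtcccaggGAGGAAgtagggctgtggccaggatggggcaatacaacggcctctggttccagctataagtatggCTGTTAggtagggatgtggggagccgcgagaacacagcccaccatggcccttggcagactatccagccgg
Prtn3: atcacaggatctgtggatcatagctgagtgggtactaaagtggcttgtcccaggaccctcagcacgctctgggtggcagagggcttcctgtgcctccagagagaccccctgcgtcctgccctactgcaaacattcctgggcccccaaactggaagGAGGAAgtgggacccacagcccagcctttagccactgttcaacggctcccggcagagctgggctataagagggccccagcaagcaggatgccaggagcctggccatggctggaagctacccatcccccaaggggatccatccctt
Ctsg: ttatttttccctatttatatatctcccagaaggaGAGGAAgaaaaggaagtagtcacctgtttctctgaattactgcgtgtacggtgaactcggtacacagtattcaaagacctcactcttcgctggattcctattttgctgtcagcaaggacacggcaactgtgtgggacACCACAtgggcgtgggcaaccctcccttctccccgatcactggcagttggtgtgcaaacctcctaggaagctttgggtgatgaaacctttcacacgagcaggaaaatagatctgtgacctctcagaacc
Ngp: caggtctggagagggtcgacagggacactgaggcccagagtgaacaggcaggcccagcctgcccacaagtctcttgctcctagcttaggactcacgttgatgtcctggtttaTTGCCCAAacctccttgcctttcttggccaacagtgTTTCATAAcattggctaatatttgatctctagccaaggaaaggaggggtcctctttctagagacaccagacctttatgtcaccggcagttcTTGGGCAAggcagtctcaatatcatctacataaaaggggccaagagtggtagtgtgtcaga
Camp: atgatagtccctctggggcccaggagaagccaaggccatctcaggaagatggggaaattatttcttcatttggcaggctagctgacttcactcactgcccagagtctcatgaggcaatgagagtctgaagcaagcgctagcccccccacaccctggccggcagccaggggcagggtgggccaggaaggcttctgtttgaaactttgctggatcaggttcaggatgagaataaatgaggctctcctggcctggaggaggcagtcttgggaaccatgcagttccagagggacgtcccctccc
The PU.1 letters GAGGAA were found in all 4 primary promoters and in 7 of the 10 in all, against 28.3% of 32851 promoters. They lie at position -85 in Ela2 and -95 in Prtn3, counted from the annotated start to the first base of the match. In Mpo they lie farther out, at -247 and -224, and in Ctsg at -216. The C/EBP letters were found in 5 of 10 promoters (Lcn2, S100a8, S100a9, Ngp and Ltf), against 40.7% of all promoters, and in none of the 4 primary windows. Ngp held 3 such matches, whereas the Camp window held no match to any motif searched. The MYB letters were found in Ela2 and Mpo (2 of 10, against 23.3%) and the RUNX letters in S100a9, Ltf and Ctsg (3 of 10, against 16.8%). The PU.1 string can fall inside the C/EBP string, but no matches overlapped in these 10 windows, and a match is a string in this window and not a binding site.

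The libraries were of similar depth. The files hold no counts, but 75.9% of 4143 low genes had values on a common step per read, from which totals of 17.8 to 23.9 M reads were estimated. By this estimate the fewest reads behind a granule gene were 3.01 for Camp in ST-HSC, and counting error there is wide. Transcripts of 2 of the 5 sorting markers followed the gates: Ly6a, which encodes Sca-1, lay at 72.4 to 152 RPKM in the 6 stem cell libraries and at 8.16 and 11.7 in KLS-, and Slamf1, which encodes CD150, lay at 10.7 to 35.4 RPKM in LT libraries and at 0.955 to 2.87 elsewhere. Kit was at 118.7 to 213 RPKM in stem cells and at 78.4 and 88.2 in KLS-. Transcripts of the markers used for negative gates were not absent: Cd48 was at 10.4 and 5.17 RPKM in LT-HSC, 16.8 and 29.5 in LT-CML, 41.8 in ST-HSC and 45.2 in ST-CML. Flt3, which encodes CD135, was at 3.95 and 2.52 RPKM in LT-HSC, 11.9 and 19.2 in LT-CML, 61.6 in ST-HSC and 71.6 in ST-CML, and was called higher in LT-CML (1.95 ± 0.28 SE, limma adjusted p = 0.0184). That call was lost when any LT library was left out (differences of 1.63 to 2.28) and without the filter (limma adjusted p = 0.303). It was also lost in the 6 stem cell libraries with LT or ST as covariate (limma adjusted p = 0.0703). The Y-linked transcripts Ddx3y and Eif2s3y, examined after their values were seen, reached 31.0 and 37.8 RPKM in LT-HSC replicate 2 and 17.5 and 24.4 RPKM in LT-CML replicate 2, and were at or below 0.082 RPKM in the other 6 libraries. Xist RNA, made from an inactivated X, was at 0.154 RPKM in LT-HSC replicate 2, 13.5 in LT-CML replicate 2 and 12.4 to 30.8 in the other 6 libraries. These are the same 2 LT libraries in which granule transcripts stood higher within their group, and the part of mouse sex in the granule values was not tested.

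The 4 primary granule genes were highest in KLS- progenitors, and within the stem cells they were high in LT-CML replicate 2 and ST-CML but not in LT-CML replicate 1. Mpo, which encodes myeloperoxidase, was at 31.8 and 69.9 RPKM in LT-HSC replicates 1 and 2, 5.20 and 1291 in LT-CML replicates 1 and 2, 95.5 in ST-HSC, 830 in ST-CML, 7891 in normal KLS- and 13120 in CML-KLS-. It ranked 1 among all genes in both KLS- libraries and 33 in LT-CML replicate 2, but 6257 in LT-CML replicate 1. The 2 LT-CML libraries thus lay on either side of both LT-HSC libraries.

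Ela2, which encodes neutrophil elastase, was at 25.2 and 125 RPKM in LT-HSC, 2.62 and 1120 in LT-CML, 9.72 in ST-HSC, 627 in ST-CML, 3582 in normal KLS- and 5672 in CML-KLS-. Ctsg, which encodes the serine protease cathepsin G, was at 3.002 and 12.4 RPKM in LT-HSC, 0.434 and 123 in LT-CML, 2.02 in ST-HSC, 56.8 in ST-CML, 606 in normal KLS- and 702 in CML-KLS-. Both followed Mpo, with LT-CML replicate 1 the lowest of the 8 libraries and CML-KLS- the highest. About 9 reads stood behind Ctsg in LT-CML replicate 1.

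Prtn3, which encodes proteinase 3, varied far less than the other primary genes. It was at 62.8 and 102 RPKM in LT-HSC, 86.9 and 293 in LT-CML, 136 in ST-HSC, 252 in ST-CML, 877 in normal KLS- and 1124 in CML-KLS-. Its highest library exceeded its lowest by 17.9-fold, against 2523-fold for Mpo, 2161-fold for Ela2 and 1618-fold for Ctsg. In LT-CML replicate 1, Prtn3 stood at 16.7 times the level of Mpo, whereas in LT-CML replicate 2 it stood at 0.227 times that level, close to the 0.304 of ST-CML.

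The secondary granule genes had another order, with LT-HSC replicate 2 highest and ST-HSC lowest for each of the 4. Ltf, which encodes the iron-binding protein lactoferrin, was at 14.5 and 76.7 RPKM in LT-HSC, 7.70 and 12.6 in LT-CML, 0.194 in ST-HSC, 4.81 in ST-CML, 1.12 in normal KLS- and 1.68 in CML-KLS-. Ngp, which encodes neutrophilic granule protein, was at 94.7 and 688 RPKM in LT-HSC, 54.2 and 117 in LT-CML, 0.458 in ST-HSC, 55.9 in ST-CML, 7.06 in normal KLS- and 20.9 in CML-KLS-. Both were higher in every LT library than in either KLS- library, and Ltf was the one gene of the 10 in which both LT-CML libraries lay below both LT-HSC libraries.

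Camp, which encodes the precursor of the antimicrobial peptide cathelicidin, was at 49.9 and 432 RPKM in LT-HSC, 32.1 and 86.2 in LT-CML, 0.267 in ST-HSC, 57.8 in ST-CML, 3.87 in normal KLS- and 37.7 in CML-KLS-. Lcn2, which encodes the siderophore-binding protein lipocalin 2, was at 14.1 and 103 RPKM in LT-HSC, 8.95 and 25.6 in LT-CML, 0.187 in ST-HSC, 8.74 in ST-CML, 6.42 in normal KLS- and 34.4 in CML-KLS-. In CML-KLS- Camp lay within the range of the 2 LT-CML libraries and Lcn2 above it, whereas Ltf lay below it. The ratio of Ngp to Camp was 1.36 to 1.90 in the LT, ST-HSC and normal KLS- libraries, 0.967 in ST-CML and 0.556 in CML-KLS-.

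S100a8 was at 214 and 1802 RPKM in LT-HSC, 93.8 and 588 in LT-CML, 8.55 in ST-HSC, 227 in ST-CML, 92.6 in normal KLS- and 487 in CML-KLS-. Its partner S100a9 was at 105 and 856 RPKM in LT-HSC, 38.2 and 199 in LT-CML, 3.27 in ST-HSC, 56.5 in ST-CML, 12.1 in normal KLS- and 68.8 in CML-KLS-. S100a8 was the most abundant of the 10 transcripts in LT-HSC, where it ranked 215 and 28 among all genes. The ratio of S100a8 to S100a9 was 2.04 to 2.96 in the LT and ST-HSC libraries, 4.02 in ST-CML, and 7.63 and 7.08 in normal KLS- and CML-KLS-.

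**Figure D1:**
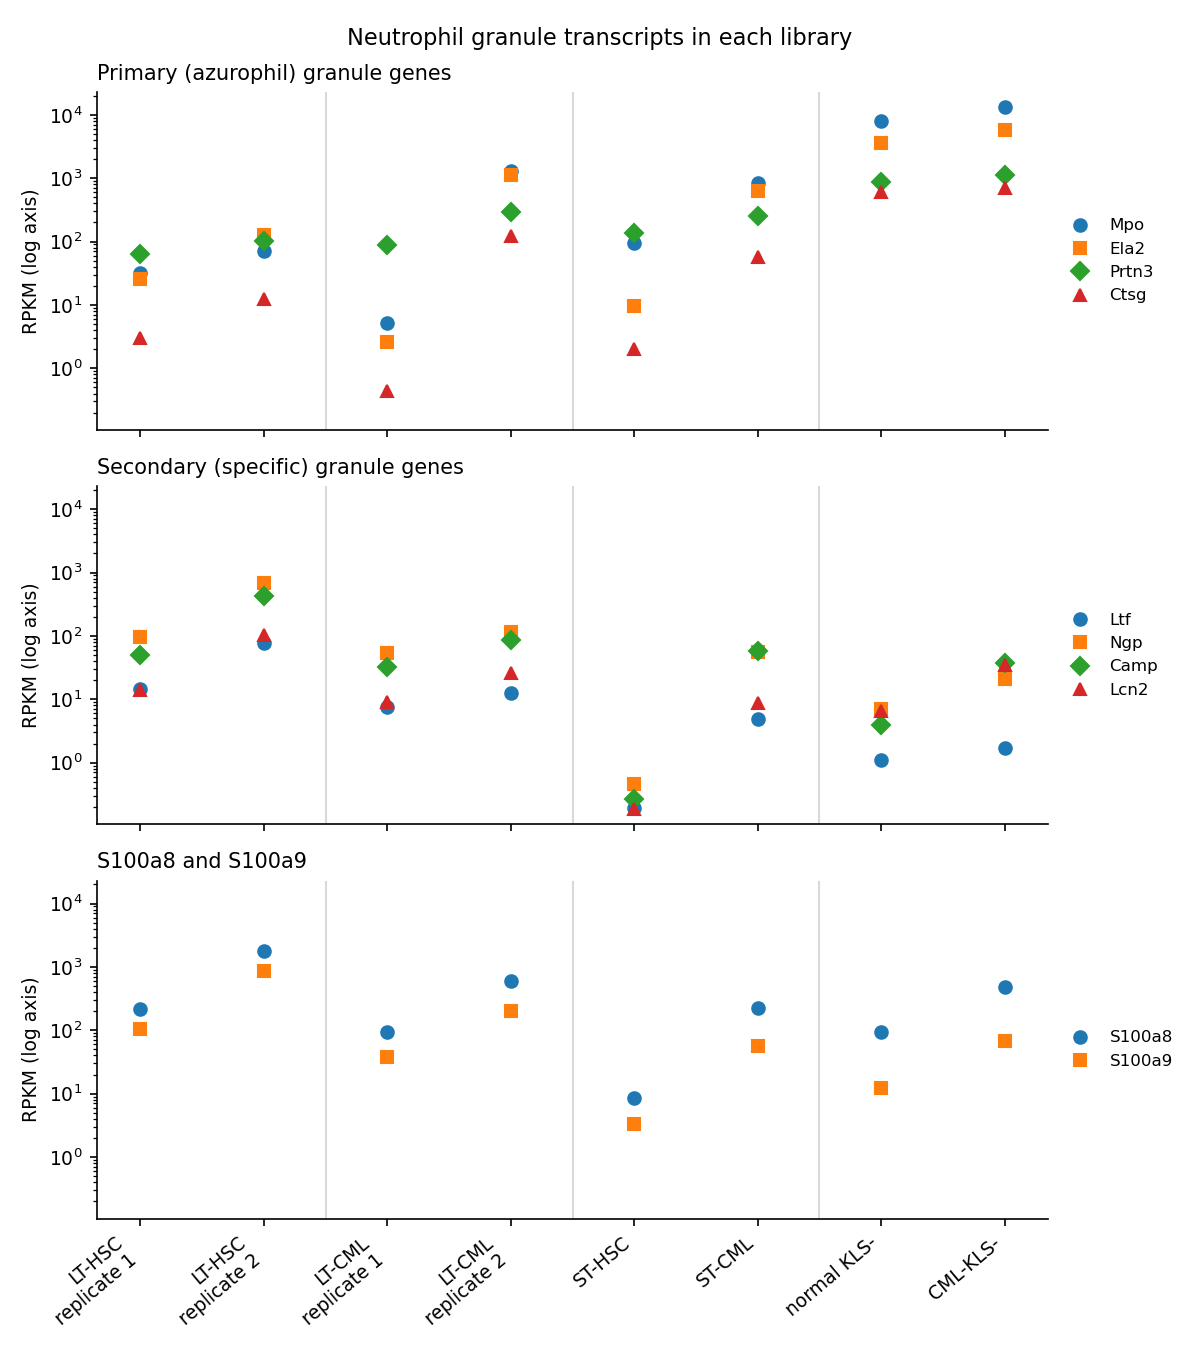
RPKM of each granule gene (vertical log axis) in each of the 8 libraries (horizontal axis), 1 point per gene and library, with primary genes above, secondary genes in the middle and the S100 pair below. Mpo and Ela2 reach 13120 and 5672 in CML-KLS-, while the 4 secondary genes are at 0.187 to 0.458 in ST-HSC.

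Summed over the 4 primary genes, the level was 123 and 310 RPKM in LT-HSC, 95.2 and 2827 in LT-CML, 243 in ST-HSC, 1766 in ST-CML, 12956 in normal KLS- and 20618 in CML-KLS-. The 4 secondary genes summed to 173 and 1300 RPKM in LT-HSC, 103 and 241 in LT-CML, 1.11 in ST-HSC, 127 in ST-CML, 18.5 in normal KLS- and 94.7 in CML-KLS-. The secondary sum was thus above the primary sum in both LT-HSC libraries (1.41 and 4.20 times) and in LT-CML replicate 1 (1.08 times), and at 0.0854 of it in LT-CML replicate 2. All 10 genes together took 1.19% of the summed RPKM in both LT-HSC replicate 2 and LT-CML replicate 2, but mainly from the S100 and secondary genes in the first and mainly from the primary genes in the second.

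**Figure D2:**
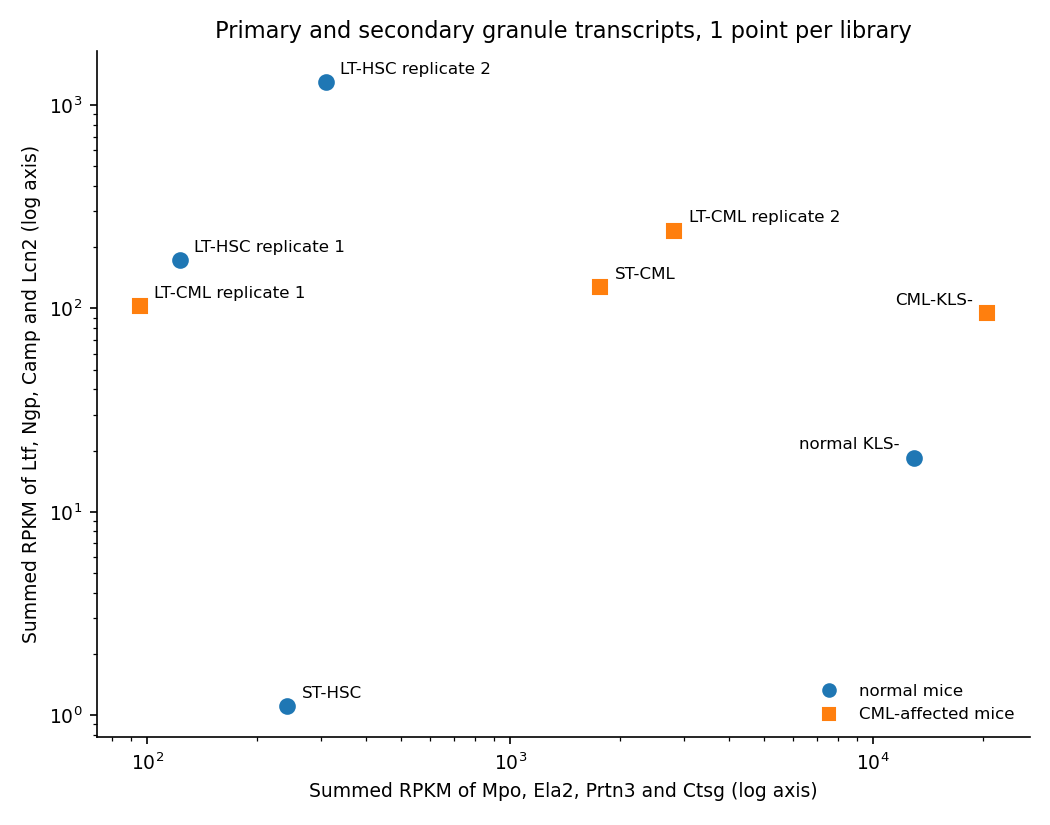
Summed RPKM of the primary genes (horizontal log axis) against that of the secondary genes (vertical log axis), with 1 point per library and circles for normal and squares for CML-affected mice. LT-HSC replicate 2 stands highest (1300) at a primary sum of 310, and LT-CML replicate 2 lies beside ST-CML at primary sums of 2827 and 1766.

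Across the 8 libraries the genes fell into these 2 patterns, given here as a description over 8 libraries of 6 populations, 4 of them LT libraries whose values also chose the genes. Pearson's r of log2(RPKM + 1) was 0.887 to 0.989 (median 0.956) over the 6 pairs of primary genes, and 0.774 to 0.982 (median 0.934) over the 15 pairs of secondary and S100 genes. Over the 24 pairs that join the groups it was -0.527 to 0.449 (median 0.031). Among 10023 genes with a mean of at least 1 RPKM, those most like the mean of the primary genes were Clec12a (r = 0.992), Igsf6 (0.984), Atp8b4 (0.983), Cst7 (0.981) and Anxa3 (0.978). Those most like the secondary genes were Tcfe3 (0.986), Fam125b (0.928), Cd177 (0.926), Fam46c (0.923) and Mettl9 (0.918). Clec12a spanned 0.598 to 165 RPKM, whereas Tcfe3 spanned only 1.12 to 2.56 RPKM, so that its likeness is in order and not in size.

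The gaps between replicates of one LT population were among the widest of all genes. On the log2(RPKM + 1) scale, LT-CML replicate 2 exceeded replicate 1 by 8.27 for Ela2, 7.70 for Mpo and 6.43 for Ctsg, which ranked 1, 2 and 3 of 12561 genes. These are ratios of 427, 248 and 283. The gap was 2.64 for S100a8, 2.35 for S100a9, 1.74 for Prtn3, and 0.65 to 1.42 for the 4 secondary genes. In LT-HSC the order was turned: replicate 2 exceeded replicate 1 by 3.09 for Camp (rank 3), 3.07 for S100a8 (rank 4), 3.01 for S100a9 (rank 6), 2.85 for Ngp, 2.79 for Lcn2 and 2.33 for Ltf, and by 2.27 for Ela2, 1.74 for Ctsg, 1.11 for Mpo and 0.70 for Prtn3. A gap above 1 was seen for 9 of the 10 genes in LT-CML, against 1.02% of all genes, and for 9 of 10 in LT-HSC, against 1.19%, and nothing is read from these counts because the gaps were used to choose the genes. Other genes with wide gaps in LT-CML were Ly6c2 (3.80 and 172 RPKM) and Ms4a3 (4.72 and 195 RPKM), and in LT-HSC Hbb-b1 (6.25 and 56.3 RPKM) and Fcnb (3.02 and 26.7 RPKM).

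**Figure D3:**
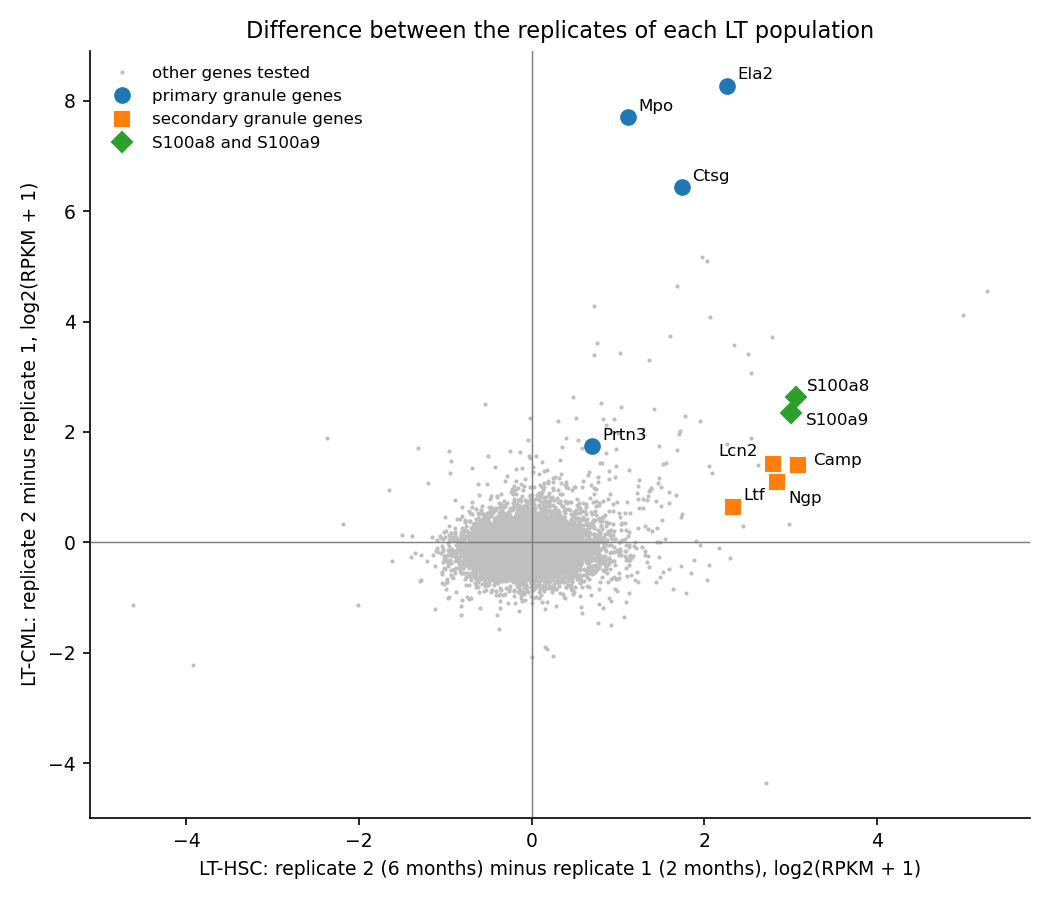
Difference between replicates 2 and 1 on the log2(RPKM + 1) scale in LT-HSC (horizontal axis) and LT-CML (vertical axis), with 1 point per gene tested and the 10 granule genes coloured by group. Ela2, Mpo and Ctsg stand at 8.27, 7.70 and 6.43 on the LT-CML axis, and Camp, S100a8 and S100a9 at 3.09, 3.07 and 3.01 on the LT-HSC axis.

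Against this spread, LT-CML and LT-HSC overlapped in 9 of the 10 genes. The difference of means on the log2(RPKM + 1) scale, LT-CML minus LT-HSC with n = 2 in each, was 0.89 ± 2.03 (SE) for Mpo, 0.15 ± 2.24 for Ela2, 0.86 ± 1.74 for Ctsg and 0.99 ± 0.52 for Prtn3. It was -1.67 ± 0.66 for Ltf, -1.67 ± 0.81 for Ngp, -1.47 ± 0.90 for Camp, -1.28 ± 0.83 for Lcn2, -1.40 ± 1.07 for S100a8 and -1.77 ± 1.01 for S100a9. No test is given, since this gap was used to choose the genes. No gene of the 10 had both LT-CML libraries above both LT-HSC libraries, against 17.5% of all genes, and only Ltf had both below, against 23.0%. For all 6 secondary and S100 genes LT-CML replicate 1 lay below both LT-HSC libraries, and LT-CML replicate 2 lay below LT-HSC replicate 2 (0.165 to 0.327 times its level) but, for all except Ltf, above LT-HSC replicate 1 (1.24 to 2.75 times its level). In the limma fit over all genes, 1.73% of genes were called at an adjusted p under 0.05 (118 higher and 99 lower in LT-CML). For Mpo, Ela2 and Ctsg the direction rested on single libraries, whereas the difference for Prtn3 stayed positive under every alternative (0.11 to 1.86). Against LT-HSC replicate 1, Mpo was at 0.164 times the level in LT-CML replicate 1 and at 40.6 times the level in LT-CML replicate 2. With LT-HSC replicate 2 left out, the median difference of the 10 genes went from -1.34 to 0.12.

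KLS- progenitors held more primary granule transcripts than LT stem cells, and of the other 6 genes only Ltf passed the test. In the limma model with cell type and disease, all 4 primary genes were higher in KLS-, by 7.28 ± 1.66 (SE) for Mpo (limma adjusted p = 0.00721), 6.22 ± 2.03 for Ela2 (0.0333), 6.05 ± 1.52 for Ctsg (0.0114) and 3.12 ± 0.41 for Prtn3 (0.000606). Of all genes, 20.8% were called higher. Ltf was lower in KLS- (-3.03 ± 0.85, adjusted p = 0.0181), whereas 25.5% of all genes were called lower. The other 5 did not pass, at -3.44 ± 1.34 for Ngp (adjusted p = 0.0626), -2.70 ± 1.42 for Camp (0.147), -2.43 ± 1.29 for S100a9 (0.149), -0.84 ± 1.35 for S100a8 (0.627) and -0.65 ± 1.05 for Lcn2 (0.632). These genes were chosen with earlier results of the same libraries known, so the adjusted p places them among all genes and is not independent evidence.

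The call for Prtn3 held under all 12 alternatives (adjusted p 2.06e-05 to 0.0336). Within CML libraries alone, Mpo, Ela2 and Ctsg differed by 7.20, 6.48 and 5.72 but were no longer called (adjusted p = 0.102, 0.150 and 0.114 in limma), whereas within normal libraries alone all 4 primary genes and Ltf were called. Ela2 was also not called without LT-HSC replicate 1 (0.0565), under quantile normalization (0.0647) or without the filter (0.0933), and Ltf was not called without the filter (0.0585). Ngp and S100a9 were called lower without LT-CML replicate 1 (limma adjusted p = 0.0399 and 0.0394) and within normal libraries alone (0.0301 and 0.0440), where Camp was called too (0.0380), and Ngp also within CML libraries (0.0321). For S100a8 and Lcn2 the difference was negative within normal libraries (-2.74 and -2.42) and positive within CML libraries (1.05 and 1.12), and neither was called in either. Without replicate 2 of both LT populations, an alternative added after the data were seen, the 4 primary genes and Ltf kept their calls, at 9.48 for Mpo, 8.85 for Ela2, 8.09 for Ctsg, 3.73 for Prtn3 and -2.28 for Ltf.

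Between ST and LT stem cells no granule gene passed the test, against 4.87% of all genes. The limma estimates, ST minus LT, were -3.98 ± 1.34 (SE) for Ngp (adjusted p = 0.142), -3.38 ± 1.29 for S100a9 (0.189), -3.37 ± 1.42 for Camp (0.234), -3.04 ± 1.35 for S100a8 (0.258), -2.90 ± 1.05 for Lcn2 (0.168) and -2.88 ± 0.85 for Ltf (0.0995). All 6 estimates were negative, and 5 of the 6 (all but S100a8) had an unadjusted p under 0.05, as did 19.6% of all genes (2456 of 12561). These 6 genes varied together over the libraries (Pearson's r of 0.774 to 0.982), and the LT values in this contrast are among those that chose them. Nothing is therefore read from these counts. The primary genes were at 2.11 ± 1.66 for Mpo, 0.70 ± 0.41 for Prtn3, 0.44 ± 2.03 for Ela2 and 0.42 ± 1.52 for Ctsg. Without replicate 2 of both LT populations, Prtn3 was called higher in ST (1.31, adjusted p = 0.00450). In this model CML and normal ST libraries share 1 estimate, although ST-CML and ST-HSC differed widely. For all 6 secondary and S100 genes ST-HSC was the lowest library. ST-CML lay within the range of the LT-CML libraries for Ngp, Camp, S100a8 and S100a9, and below it for Ltf and Lcn2.

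**Figure D4:**
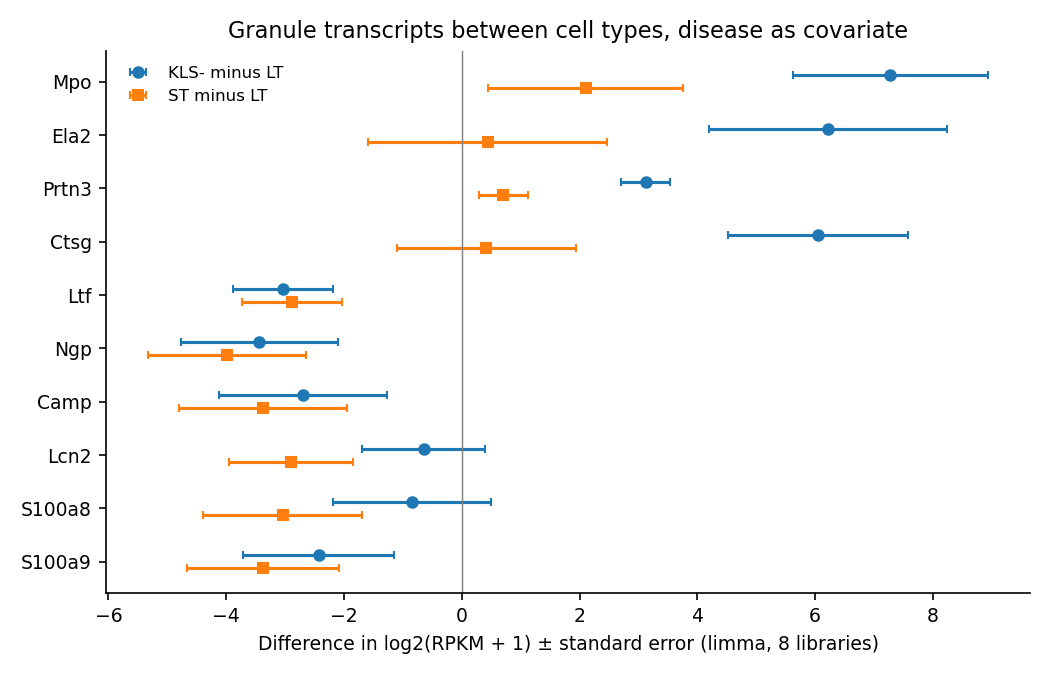
Difference in log2(RPKM + 1) between cell types (horizontal axis) for each granule gene (vertical axis), with circles for KLS- minus LT and squares for ST minus LT and bars of 1 standard error from limma over 8 libraries. The primary genes lie at 3.12 to 7.28 for KLS- minus LT, and the secondary and S100 genes lie below 0 in both comparisons, where only Ltf in KLS- was called.

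The ST and KLS- comparisons of CML with normal have 1 library each and no replicate check. ST-CML exceeded ST-HSC in all 10 genes, and 9 of the 10 (all but Prtn3) were above it by more than 1 on the log2(RPKM + 1) scale, against 2.03% of all genes. The median difference over all genes was -0.078 on that scale. The ratio was 8.69 for Mpo, 64.5 for Ela2, 28.1 for Ctsg and 1.86 for Prtn3. For the secondary genes it was 24.8 for Ltf, 122 for Ngp, 46.7 for Lcn2 and 217 for Camp, where an estimated 3 reads in ST-HSC against 647 gave a 95% exact binomial interval of 74.1 to 1057 that covers counting error only. About 10 reads each for Ltf and Ngp and 8 for Lcn2 stood behind the ST-HSC values. S100a8 and S100a9 differed by 26.6- and 17.3-fold.

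CML-KLS- exceeded normal KLS- in all 10 genes, by more than 1 on that scale in 5 of the 10, against 1.85% of all genes. The median difference over all genes was -0.015 on that scale. These 5 were Camp (9.72-fold), S100a9 (5.67-fold), Lcn2 (5.36-fold), S100a8 (5.26-fold) and Ngp (2.97-fold). The ratio for Ltf was 1.504, and the primary genes, which were already among the most abundant transcripts of normal KLS-, differed by 1.66-fold (Mpo), 1.58-fold (Ela2), 1.28-fold (Prtn3) and 1.16-fold (Ctsg).

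Other granule and antimicrobial genes were called between KLS- and LT cells about as often as all genes in total. A larger share of them was higher in KLS- and a smaller share lower. Of 33 such genes tested, 14 were called higher in KLS- than in LT cells, 2 lower and 17 neither, against 20.8% of all genes higher, 25.5% lower and 46.4% in either direction. None was called between LT-CML and LT-HSC by limma. Among those higher in KLS- were Cst7, which encodes cystatin F (4.70 ± 0.75 SE, adjusted p = 0.00145), Ms4a3 (5.26 ± 1.32, adjusted p = 0.0114) and Serpinb1a, an inhibitor of neutrophil serine proteases (1.87 ± 0.30, adjusted p = 0.00136). The 2 lower were Retnlg (-2.80 ± 0.90, adjusted p = 0.0316) and Lyz1 (-0.83 ± 0.27, adjusted p = 0.0317), which shares near-identical sequence with Lyz2 and is uncertain. Of the 33, 15 had a replicate gap above 1 in LT-CML, against 1.02% of all genes, and 15 in LT-HSC, against 1.19%. Ms4a3 was at 5.003 and 23.6 RPKM in LT-HSC and 4.72 and 195 in LT-CML, in the order of the primary genes, and Retnlg was at 23.5 and 142 RPKM in LT-HSC and 5.25 and 22.1 in LT-CML, in the order of the secondary genes. Their LT differences (1.46, adjusted p = 0.798, and -2.30, adjusted p = 0.341) did not pass, nor did that of the collagenase gene Mmp8 (-1.34, adjusted p = 0.376).

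A list of 19 genes set down as regulators of granulocyte genes included the circadian gene Per3, whose part in granule gene regulation was not tested. Of the 19, 7 were called higher in KLS- than in LT cells (Cebpa, Cebpd, Cebpe, Sfpi1, Gfi1, Irf8 and Csf3r) and 3 lower (Runx1, Cbfb and Rara). The other 9 were called in neither direction, so that 10 of 19 were called, against 46.4% of all genes. Cebpe, a C/EBP factor needed for secondary granules, was at 0.284 and 1.39 RPKM in LT-HSC, 0.117 and 1.73 in LT-CML, 0 in ST-HSC, 1.60 in ST-CML, 6.58 in normal KLS- and 6.98 in CML-KLS-. Its KLS- minus LT difference was 2.15 ± 0.42 (limma SE, adjusted p = 0.00361), and that of Cebpa was 1.84 ± 0.25 (adjusted p = 0.000641). Sfpi1, which encodes PU.1, differed by 0.64 ± 0.14 (adjusted p = 0.00656), and Runx1 by -1.19 ± 0.15 (adjusted p = 0.000486). Between LT-CML and LT-HSC the circadian gene Per3 was the one gene of this list called, at 5.37 and 7.03 RPKM in LT-HSC and 1.01 and 1.22 in LT-CML (-1.76 ± 0.21, limma adjusted p = 0.00911), and it was not called in 3 of the 4 fits that leave out an LT library (adjusted p up to 0.160) or without the filter (0.222).

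Of 8 other S100 genes tested, 1 was called higher in KLS- (S100a11) and 4 lower (S100a3, S100a4, S100a5 and S100a6, the last by -2.85 ± 0.30 SE, limma adjusted p = 0.000181), against 20.8% and 25.5% of all genes. Between LT-CML and LT-HSC, S100a10, the annexin A2 partner, was lower, at 61.5 and 54.3 RPKM against 116 and 118 (-1.01 ± 0.18, limma adjusted p = 0.0428). This call was lost when any LT library was left out (differences of -1.09 to -0.918) and without the filter (limma adjusted p = 0.218). None of the 8 had a replicate gap above 1 in LT-CML, against 1.02% of all genes. In LT-HSC 2 did, against 1.19% (S100a4 at 6.04 and 18.2 RPKM and S100a6 at 29.1 and 62.9 RPKM). Of 12 genes of granule targeting and inherited neutropenia, none was called between LT-CML and LT-HSC, and 6 were higher and 2 lower in KLS-, against the same shares, with Rab27a, which serves granule release, at 1.09 ± 0.14 (adjusted p = 0.000521). The LT differences with the largest size in that list were -0.34 for Unc13d (adjusted p = 0.732), -0.33 for Vps45 (0.643) and 0.26 for Hax1 (0.743).

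Markers of other cells moved with the granule genes in part. The 11 mature neutrophil markers summed to 73.1 and 218 RPKM in LT-HSC, 41.3 and 88.9 in LT-CML, 103 in ST-HSC, 75.1 in ST-CML, 61.0 in normal KLS- and 87.8 in CML-KLS-. Most of the difference between the LT-HSC libraries was in Retnlg, with Cd177 at 2.29 and 12.6 RPKM, Mmp8 at 2.51 and 10.2 RPKM and Il1b at 1.02 and 8.93 RPKM in LT-HSC replicates 1 and 2. Padi4 (7.62 and 5.45 RPKM), Il8rb (16.9 and 14.8) and Csf3r (14.6 and 13.7) were lower in replicate 2. Itgam (2.88 and 2.92) hardly differed. Fpr1, a formyl peptide receptor of mature neutrophils, was at 0.417 and 1.99 RPKM in LT-HSC and at or below 0.0415 RPKM in the other 6 libraries. The LT difference of Cd177 was -1.19 (adjusted p = 0.588). Of these 11 markers, 7 had a gap above 1 in LT-HSC, against 1.19% of all genes, and 3 in LT-CML, against 1.02%. Mmp8, Mmp9, Retnlg, Cd177 and Itgam also stand in the list of other granule and antimicrobial genes, so the counts of these lists share genes. None of the 11 was at 0 in LT-HSC replicate 2 or LT-CML replicate 2.

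The 8 granulocyte-macrophage progenitor markers summed to 74.3 and 75.3 RPKM in LT-HSC, 88.0 and 286 in LT-CML, 277 in ST-HSC, 271 in ST-CML, 945 in normal KLS- and 1126 in CML-KLS-. Single genes carried these sums: Ms4a3 was at 4.72 and 195 RPKM in LT-CML, and Cd34 was at 261 RPKM in ST-HSC and 155 in ST-CML. In this list Csf2rb, a subunit of cytokine receptors, was called higher in LT-CML (3.36 and 3.04 against 10.1 and 12.5 RPKM, 1.55 ± 0.20 SE, limma adjusted p = 0.0136). The call was lost in each fit that leaves out an LT library (differences of 1.40 to 1.69) and without the filter (limma adjusted p = 0.211). As a share of the CML-KLS- level, LT-CML replicate 2 held 9.84% for Mpo, 19.7% for Ela2, 26.1% for Prtn3, 17.5% for Ctsg and 20.3% for Ms4a3. Over the 8 progenitor markers this share ran from 3.69% (Csf1r) to 148% (Cd34). Over the erythroid markers detected in CML-KLS- it ran from 0% (Hbb-b2) to 51.8% (Gata1), with 44.5% for Epor. Within that list Car1, an erythroid carbonic anhydrase that reached 1775 RPKM in CML-KLS-, was at 0.344%. The monocyte markers summed to 29.9 and 48.1 RPKM in LT-HSC and 17.8 and 41.9 in LT-CML, against 420 and 409 in KLS-. None was called between LT-CML and LT-HSC, with Klf4 at -1.30 (limma adjusted p = 0.0783), Ly86 at -1.14 (0.223) and Ccr2 at -0.65 (0.564). The erythroid markers summed to 81.7 and 139 RPKM in LT-HSC and 42.0 and 39.0 in LT-CML. Car1 (-2.53 ± 0.30 SE, limma adjusted p = 0.00946) and the globin gene Hbb-b2 (-3.95 ± 0.59, 0.0232), whose near-identical copies make it uncertain, were called lower in LT-CML, as were Ppbp of the megakaryocyte list (-1.13 ± 0.20, 0.0415) and Cd79a of the lymphoid list (-1.51 ± 0.25, 0.0357). Car1 and Ppbp lost the call in each fit that leaves out an LT library (adjusted p up to 0.0979 and 0.323), Hbb-b2 without either LT-CML library (0.275 and 0.292), Cd79a in all such fits except that without LT-HSC replicate 1 (up to 0.351), and all 4 without the filter. Ppbp and Cd79a were also not called under quantile normalization, upper-quartile scaling or without the trend (limma adjusted p = 0.05345 to 0.0677). Nor was Ppbp with 0.1 in place of 1 added to RPKM (0.0736), or Hbb-b2 under quantile normalization (0.0618). In the 6 stem cell libraries with LT or ST as covariate, Car1 and Cd79a were not called (0.566 and 0.949). The basophil, mast cell and eosinophil markers summed to 79.2 RPKM in LT-CML replicate 1 and 24.9 RPKM in replicate 2, of which Prg2 was 65.2 and 2.23 RPKM. The eosinophil genes Prg2, Epx and Prg3 were higher in replicate 1, whereas the other 6 were higher in replicate 2, and none of the 9 was called by limma (Fcer1a was at 1.31, adjusted p = 0.0812). The part of other cells in the granule values of any library was not tested.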

How the data were processed

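RNA of 6 sorted bone marrow populations was sequenced in 8 libraries by the authors with an oligo-dT, ultra-low input kit (paired ends, HiSeq2000) and mapped to mm9. Per the methods, the deposited values are RPKM per gene, made by the authors, and the gene annotation, counting rule and treatment of multi-mapped reads are not given in the sources used here. Near-identical genes are therefore uncertain. Replicates were not pooled.

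Genes with a total above 1 RPKM over 8 libraries (12561 of 20207) were tested on log2(RPKM + 1), a scale that understates changes of low genes, with limma 3.58.1 (R 4.3.3, trended eBayes, Benjamini-Hochberg over all genes, threshold 0.05). LT-CML was compared with LT-HSC with 1 mean per population (6 means, 2 residual degrees of freedom, all from LT cells), so single-library populations borrow the spread of the LT libraries. KLS- and ST were compared with LT with disease as covariate. Estimated reads came from the common step of low values (tolerance 0.02). The step was tested on simulated data, as was the limma fit.

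The 10 granule genes and all lists were chosen with earlier results of these data known. Besides the 10 genes, the text names, of each list, the genes called between LT-CML and LT-HSC, otherwise the 3 with the largest change, the markers that stand beside a result and the 5 genes most like each group, and genes with the widest replicate gaps, examples of those called in KLS-, and Y-linked genes were picked after their values were seen. Prss57 and Ly6g were not analysed here.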

Additional observations from a re-analysis of the deposited data

Results flagged for a closer look

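Ltf was lower in both LT-CML libraries than in both LT-HSC libraries but higher in ST-CML than in ST-HSC and in CML-KLS- than in normal KLS-. The log2 ratio of CML to normal was -2.17 in LT cells (ratio of means, n = 2 each), 4.63 in ST cells and 0.59 in KLS- cells (1 library each). The LT ratio minus the ST ratio was -6.8, and the LT ratio minus the KLS- ratio was -2.75. What drew attention is that every library of one cell type moved opposite to the other, and the difference between the cell types was not tested. The ratio of means had the same signs for Ngp, Camp, Lcn2, S100a8 and S100a9 (log2 ratios of -2.19 to -1.56 in LT, 4.11 to 7.76 in ST and 1.57 to 3.28 in KLS-), but their LT-CML and LT-HSC libraries overlapped. The ST-HSC value of Ltf rests on an estimated 10 reads, with a 95% counting interval of 13.3 to 52.4 around the 24.8-fold ratio. In KLS- cells the ratio of 1.504 rests on an estimated 82 against 62 reads, with an interval of 1.07 to 2.13. Of all genes, 23.0% had both LT-CML libraries below both LT-HSC libraries.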

How the results depend on the processing

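With 2 libraries in each LT group and 1 elsewhere, calls rest on 2 residual degrees of freedom in the LT comparison, and their number moved widely. No paired analysis was possible because the labels give the normal libraries ages and no replicate numbers, so that none can be matched to an LT-CML library. Between LT-CML and LT-HSC, the 118 genes higher and 99 lower became 0 and 0 without the filter on low values (limma; 1765 genes had an unadjusted p under 0.05), 262 and 315 in the 6 stem cell libraries with LT or ST as covariate, and 5 to 30 and 1 to 44 when 1 LT library was left out. The fit to the 6 stem cell libraries compares CML with normal over LT and ST cells together, so its counts and differences are not of LT cells alone. In it the median difference of the 10 granule genes went from -1.34 to 0.76. When 1 LT library was left out, the median LT difference went to between -2.76 and 0.12. Between KLS- and LT, 2616 genes higher and 3207 lower became 562 and 942 within normal and 1202 and 1332 within CML libraries. Between ST and LT, 268 and 344 became 124 and 159 without the filter, and 161 to 269 and 214 to 458 when 1 LT library was left out. Why these counts moved beyond the change in genes and libraries was not tested. No direction that had been called turned under any alternative. Of values for single genes and lists, 1382 kept their side of the threshold, moved less than the spread or, for counts, changed little. In 143 a call was lost or a count fell, in 52 a call was gained or a count rose, and 3 moved. For the 10 genes between LT-CML and LT-HSC the spread was that of each gene's own replicates, so wide shifts are among the 1382. Ela2 went from 0.15 to 4.28 without LT-CML replicate 1 and to -3.99 without LT-CML replicate 2. The 3 that moved were Ltf, Ngp and Camp in the 6 stem cell libraries, where CML minus normal over LT and ST cells was -0.35, 0.65 and 0.87.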

Other observations

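Among the 8 libraries, LT-CML replicate 1 held the lowest Mpo, Ela2 and Ctsg but the highest LT level of the eosinophil granule genes Prg2 and Epx. Prg2 was at 65.2 RPKM there, 2.23 in LT-CML replicate 2, 0.419 and 8.34 in LT-HSC, 43.0 in ST-CML and 484 in CML-KLS-. Epx was at 4.47 RPKM in LT-CML replicate 1, 0.306 in LT-CML replicate 2, 0.0559 and 0.249 in LT-HSC, 2.89 in ST-CML and 83.0 in CML-KLS-. The LT differences did not pass in limma (2.01 ± 1.35 SE for Prg2, adjusted p = 0.674, and 1.22 ± 0.57 for Epx, adjusted p = 0.484).

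Chi3l3, a chitinase-like granule gene of myeloid cells, was at 137 RPKM in CML-KLS- and 2.76 RPKM in normal KLS-, and at 57.0 RPKM in ST-CML against 0.138 in ST-HSC, 11.3 and 70.5 in LT-HSC and 19.9 and 174 in LT-CML. It was picked after its values were seen.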
